A study of Bos taurus with 36 samples.

Results

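Endothelial and leukocyte adhesion molecules were followed in the liver of dairy cows after lipopolysaccharide (LPS) was infused into the udder. The members are the 10 genes ICAM1, VCAM1, SELE, SELP, PECAM1, ICAM3, ITGB2, ITGAM, ADGRE5 and CD44, out of 9155 genes that a probe set of the Affymetrix Bovine Genome Array names alone. They were chosen by name, and every probe set whose single annotated symbol is one of them was used, 12 of 24128 in all. ITGAM and PECAM1 have 2 probe sets each and the other 8 genes 1 each.

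The 8 cows were healthy Holstein-Friesians that had calved once, between 9 and 12 weeks before the study. At time 0 all of them received 200 microgram of E. coli LPS through 1 front teat and saline through the other. No cow thus went without LPS. Each hour is set against the biopsies of all 8 cows taken 22 hours before the infusion (-22 hours). Liver biopsies of all 8 cows were measured at -22, 9 and 48 hours, and a subset of 4 (numbered 1, 3, 7 and 8) was biopsied at 3, 6 and 12 hours too, which gives 36 arrays. Values are log2 intensities as the authors made them with GCRMA, a method that corrects background and puts all arrays on 1 scale. A probe set was called higher or lower when its limma test against -22 hours gave p below 0.05 after Benjamini-Hochberg adjustment across the 24128 probe sets, and this is the adjusted p throughout. All 5 hours share the 8 arrays at -22 hours as their baseline. The test does not pair arrays by cow, so at 3, 6 and 12 hours 4 cows are set against 8.

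Leukocytes leave the blood in steps. Selectins on activated endothelium let them roll, ICAM-1 and VCAM-1 hold them through integrins such as the beta 2 family, and junction proteins such as PECAM-1 guide them between endothelial cells. In the liver much of this takes place in the sinusoids, whose lining expresses ICAM-1 at rest and little P- or E-selectin, and where CD44 takes part in holding neutrophils. These roles are known mainly from human and mouse.

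Of the 12 probe sets, 4 were called at 3 hours, all higher (5.9% of all probe sets were called, 3.5% higher). At 6 hours 4 were higher and 2 lower (23.3% and 22% of all, 45.3% together). At 9 hours 6 were higher and 2 lower (32% and 22.6%, 54.7% together). At 12 hours 4 were higher and 1 lower (22.2% and 18.9%, 41.1% together), and at 48 hours 1 was higher and 2 lower (17.9% and 12.2%, 30.1% together). Values did not overlap with those at -22 hours for 5 of the 12 at 3 hours (4.4% over the whole array), for 6 at 6 hours (31.7%), for 6 at 9 hours (27.3%) and for 2 at 12 hours (27.1%). By 48 hours 0 of the 12 stood clear of the baseline (4.16%). Over the 12 probe sets the median size of the log2 change, in order of the hours, was 0.42, 0.88, 0.85, 0.43 and 0.26, where the median over all probe sets was 0.09, 0.23, 0.26, 0.25 and 0.12. The share called at 3 hours was above that of the whole array, while at 6, 9, 12 and 48 hours the array itself was so widely changed that the count of calls stands near the background. The members differed in which way and when they moved, as the plot of values by cow shows. ICAM1, VCAM1, SELP and CD44 were all called higher from 3 hours, and ADGRE5 from 9 hours. The mean was highest at 3 hours for ICAM1, at 6 hours for VCAM1, SELP and CD44 and at 12 hours for ADGRE5, although for VCAM1 the level at 6 hours differed beyond the spread neither from 3 nor from 9 hours, and for CD44 not from 9 hours.

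**Figure D1:**
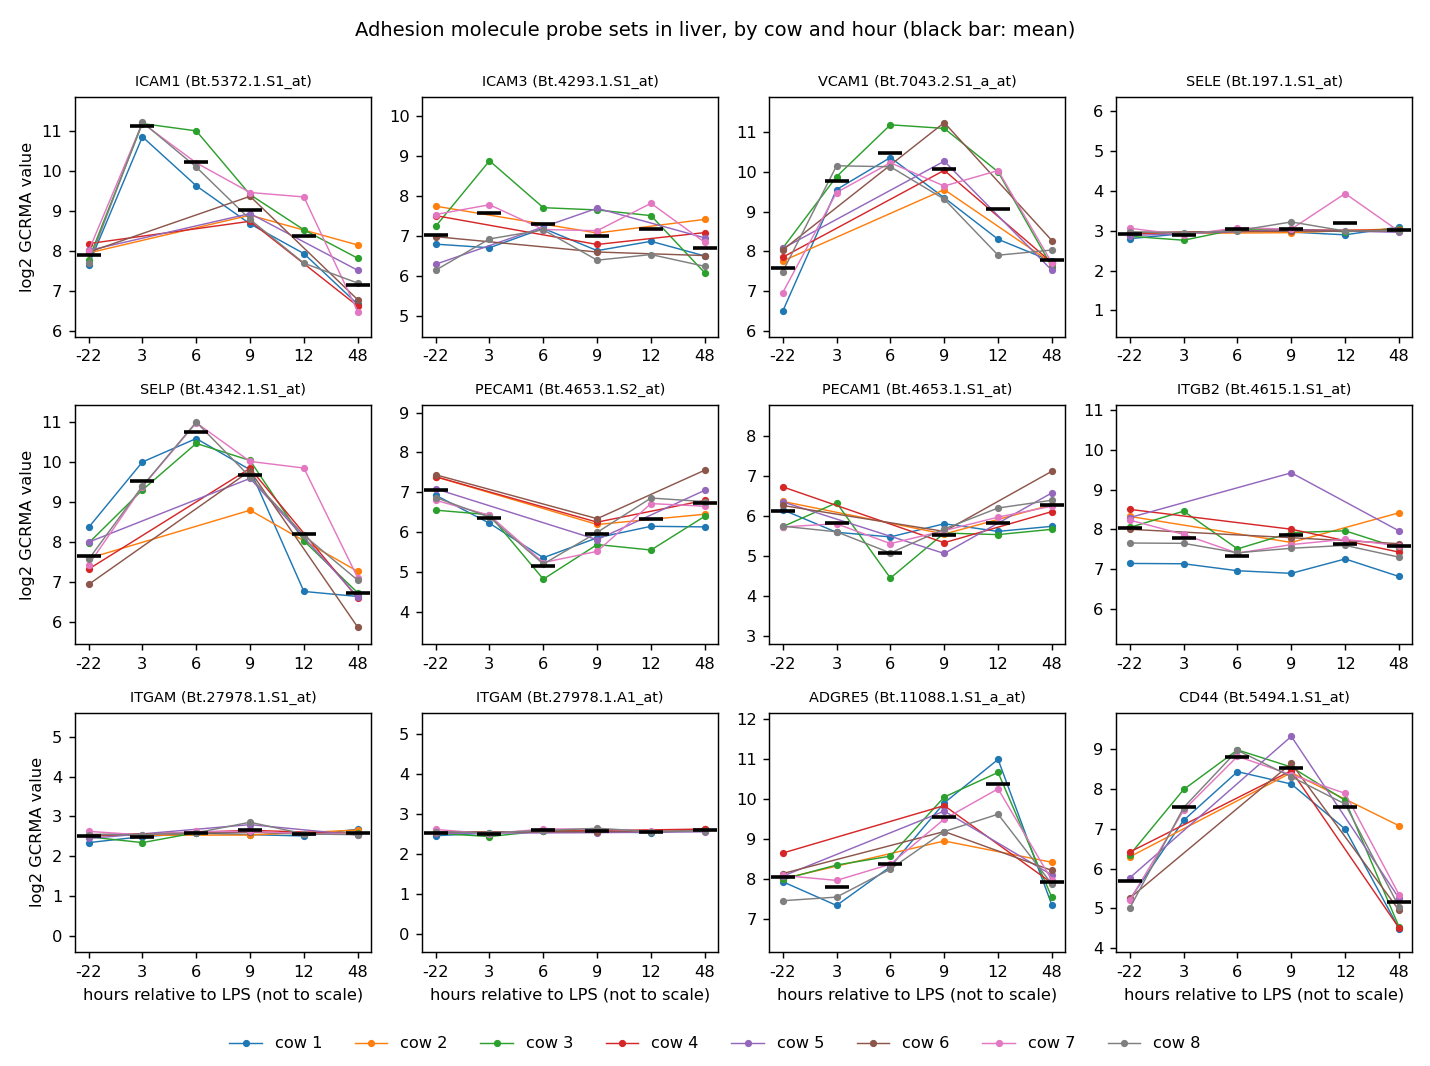
Log2 GCRMA value of each of the 12 probe sets (1 panel each, all spanning 6 log2 units) at each hour relative to LPS, with 1 coloured line per cow and a black bar at the mean of the hour (n = 8 cows at -22, 9 and 48 hours, 4 at 3, 6 and 12 hours). ICAM1, VCAM1, SELP, CD44 and ADGRE5 rise and return, PECAM1 dips at 6 hours, ICAM3 and ITGB2 differ between cows more than between hours, and SELE and both ITGAM probe sets stay flat near the lower end apart from SELE in cow 7 at 12 hours.

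ICAM1 encodes a ligand of beta 2 integrins on endothelium, and its mean was highest at 3 hours. Its probe set (Bt.5372.1.S1_at) had log2 values of 10.86, 11.19, 11.20 and 11.22 in cows 1, 3, 7 and 8 at 3 hours, against a lowest of 7.64, a median of 7.95 and a highest of 8.18 at -22 hours. All 4 cows lay far above every -22 hour value, and they differed little from each other. The log2 change was 3.22 (SE 0.28), a 9.30-fold rise (adjusted p = 4.32e-10), and within single cows it ranged between 3.21 and 3.54.

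At 6 hours ICAM1 was at 9.63, 11.00, 10.20 and 10.10 in cows 1, 3, 7 and 8, a log2 change of 2.33 (SE 0.28, adjusted p = 1.76e-08). At 9 hours the 8 cows had a lowest of 8.67, a median of 8.91 and a highest of 9.46, a log2 change of 1.13 (SE 0.23, adjusted p = 7.07e-05). None of these arrays overlapped with -22 hours. At 12 hours the 4 cows parted: cows 3 and 7 stood at 8.52 and 9.35, and cows 1 and 8 at 7.93 and 7.69, within the -22 hour range, and the mean change of 0.47 (SE 0.28) did not pass the test (adjusted p = 0.197).

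By 48 hours ICAM1 was below its baseline, with a lowest of 6.48, a median of 6.98 and a highest of 8.14 and lower values in 6 of 8 cows. The log2 change of -0.75 (SE 0.23) passed the test (adjusted p = 0.0173). That call was lost without cow 4 (adjusted p = 0.0671) and with the 4 fully sampled cows alone (adjusted p = 0.218), while the log2 change stayed at -0.63 and -0.74. Ordered by level, 3 hours lay above 6 hours (adjusted p = 0.0239) and 6 above 9 hours (adjusted p = 0.00117), and the neighbours 9 and 12 hours, and 12 and -22 hours, did not differ beyond their spread. A biopsy mixes cells, so fewer cells of a type and less RNA per cell cannot be told apart in these values.

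VCAM1 encodes the endothelial ligand of the integrin alpha 4 beta 1, which lymphocytes and monocytes carry. Its probe set (Bt.7043.2.S1_a_at) read 10.35, 11.17, 10.22 and 10.12 in cows 1, 3, 7 and 8 at 6 hours, against a lowest of 6.50, a median of 7.81 and a highest of 8.08 at -22 hours. The cow with the lowest baseline (cow 1) thus rose by 3.85, and the 4 post-LPS values closed up to a narrower range than the baseline had. The log2 change was 2.17 (SE 0.37) at 3 hours, 2.87 (SE 0.37, adjusted p = 8.90e-08) at 6 hours and 2.46 (SE 0.30, adjusted p = 2.01e-08) at 9 hours, with every cow higher and no overlap at these hours.

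The VCAM1 levels at 6, 9, 3 and 12 hours, in this order from the highest, did not differ between neighbours beyond their spread, so the hour of its peak is not resolved. At 12 hours VCAM1 was at 10.00 and 10.03 in cows 3 and 7 and at 8.30 and 7.91 in cows 1 and 8, the same division of cows as for ICAM1. The mean change at 12 hours was 1.46 (SE 0.37, adjusted p = 0.00150), and it was 1.05 and no longer called without cow 7 (adjusted p = 0.0513). At 48 hours VCAM1 lay between 7.53 and 8.27, overlapping the baseline, with a log2 change of 0.20 (SE 0.30, adjusted p = 0.646).

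SELP encodes P-selectin, which endothelium and platelets store in granules and bring to the surface for rolling. Its probe set (Bt.4342.1.S1_at) had values of 10.01, 9.31, 9.39 and 9.40 at 3 hours and 10.60, 10.47, 10.99 and 11.01 at 6 hours in cows 1, 3, 7 and 8, against a lowest of 6.94, a median of 7.58 and a highest of 8.37 at -22 hours. Both hours lay wholly above the baseline. The log2 change was 1.88 (SE 0.33) at 3 hours and 3.12 (SE 0.33) at 6 hours, an 8.68-fold rise (adjusted p = 2.14e-09), and the level at 6 hours exceeded that at 3 hours (adjusted p = 0.0102) and at 9 hours (adjusted p = 0.0154). At 9 hours SELP ranged over 8.80, 9.80 and 10.05 (lowest, median, highest), a log2 change of 2.04 (SE 0.27).

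At 12 hours SELP differed more between cows than any other member at any hour: it stood at 9.86 in cow 7, 8.17 in cow 8, 8.03 in cow 3 and 6.77 in cow 1. Cow 7 was 2.43 above its own baseline and cow 1 was 1.60 below its own. The mean change of 0.56 (SE 0.33) was not called (adjusted p = 0.210), became 1.14 without cow 1 (adjusted p = 0.00530) and -0.02 without cow 7. At 48 hours SELP had a lowest of 5.87, a median of 6.69 and a highest of 7.27, and was below its own baseline in 8 of 8 cows. The log2 change of -0.91 (SE 0.27) passed the test (adjusted p = 0.0158), though not without cow 3 (-0.87, adjusted p = 0.0584) or with the 4 fully sampled cows alone (-0.96, adjusted p = 0.184).

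**Figure D2:**
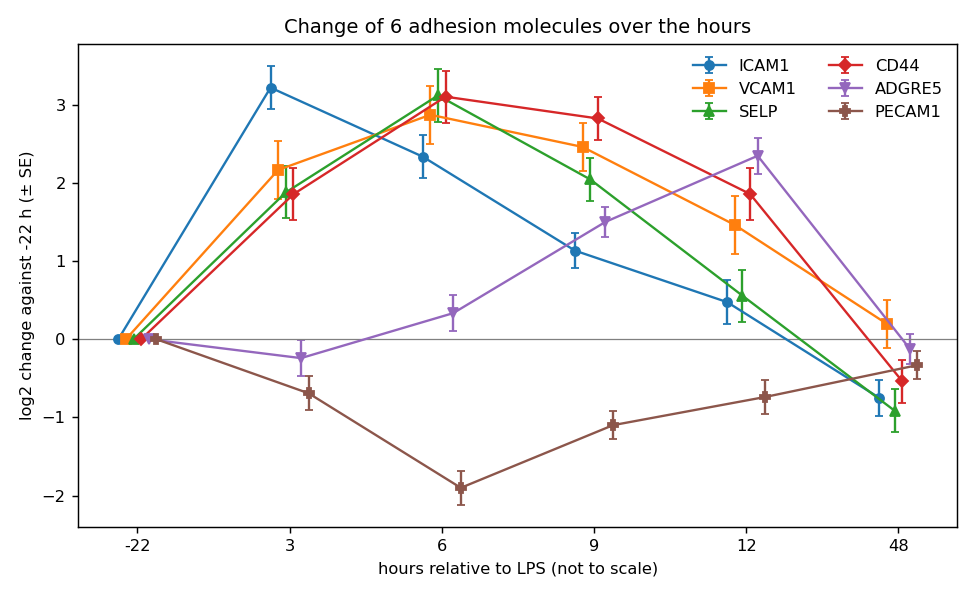
Log2 change against -22 hours (vertical axis, points, with SE bars) by hour relative to LPS for the 6 members with a change past 1 log2 unit, PECAM1 through its brighter probe set, with -22 hours set at 0 as the baseline. ICAM1 peaks at 3 hours with 3.22, VCAM1, SELP and CD44 at 6 hours with 2.87, 3.12 and 3.10, ADGRE5 at 12 hours with 2.35, and PECAM1 reaches -1.90 at 6 hours.

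SELE encodes E-selectin, the other endothelial selectin. Its probe set (Bt.197.1.S1_at) stayed between 2.76 and 3.22 in every array except that of cow 7 at 12 hours, at 3.93, and its mean over the arrays lies at the 36.8th percentile of all probe sets. The call at 12 hours (log2 change 0.27, SE 0.10, adjusted p = 0.0289) rests on that array and became 0.03 without it (adjusted p = 0.782). It was also lost with the cow as a block (0.26, adjusted p = 0.0569). At values this near the lower end of the scale a fall could not be seen, and a rise may be understated.

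PECAM1 (CD31) is a junction protein that endothelial cells, platelets and leukocytes carry all the time. It moved opposite to ICAM1, VCAM1 and SELP. The brighter probe set (Bt.4653.1.S2_at) read 5.36, 4.83, 5.24 and 5.20 in cows 1, 3, 7 and 8 at 6 hours, against a lowest of 6.55, a median of 7.01 and a highest of 7.44 at -22 hours. The groups were wide apart, and every cow was lower than its own baseline, with differences of -1.73 to -1.56. The log2 change of -1.90 (SE 0.22) is a 3.73-fold fall (adjusted p = 8.48e-09). It is set against the mean of all 8 cows, and no single cow fell that far. At -22 hours cows 1, 3, 7 and 8 had 6.55 to 6.93 and the other cows 7.09 to 7.44. The median change within cows 1, 3, 7 and 8 was -1.62.

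At 3 hours this PECAM1 probe set was below every baseline value, at 6.23, 6.44, 6.43 and 6.38 in the 4 cows. The log2 change of -0.69 (SE 0.22) missed the threshold (adjusted p = 0.0544). Within these 4 cows, which had the lowest baselines, the change was smaller, between -0.70 and -0.12 with a median of -0.43. At 9 hours the change was -1.10 (SE 0.18, lower in 8 of 8 cows, adjusted p = 2.88e-06), a level above that of 6 hours (adjusted p = 0.00540). At 12 hours it was -0.74 (SE 0.22, adjusted p = 0.00578), with cow 8 at 6.86 and cow 3 at 5.56, and with the 4 fully sampled cows alone it was -0.47 and not called (adjusted p = 0.100). At 48 hours the change of -0.33 (SE 0.18) was not called (adjusted p = 0.140), and with the cow as a block it was (adjusted p = 0.0495).

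The second PECAM1 probe set (Bt.4653.1.S1_at) followed the first over the 36 arrays with a Pearson correlation of 0.85, a description over arrays that share cows. Its log2 change was -1.06 (SE 0.22, adjusted p = 0.000179) at 6 hours and -0.60 (SE 0.18, adjusted p = 0.00574) at 9 hours, where it was -0.17 and not called in the 4 fully sampled cows alone (adjusted p = 0.529). It was smaller than that of the first at both hours, and at 3 and 12 hours it was not called. At 48 hours the values were 0.13 for the second and -0.33 for the first, neither called.

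The fall of PECAM1 was set beside a list of 15 other endothelial genes on the array. At 6 hours 8 of the 15 were lower and 3 higher, where 29.3% of all genes were lower and 26% higher. ENG (endoglin, a coreceptor of TGF-beta) changed by -1.61 (SE 0.24), PLVAP (the protein of fenestral diaphragms) by -2.00 (SE 0.38), SOX18 (an endothelial transcription factor) by -2.27 (SE 0.24) and CDH5 (VE-cadherin) by -1.27 (SE 0.29), and FLT1 (a VEGF receptor) by 0.63 (SE 0.23). The 3 genes of this list that rose at 6 hours were FLT1 and, by smaller amounts, MMRN1 (0.46) and KDR (0.08). The summed linear level of the 15 ranged over 825 to 1071 at 6 hours, against 1239 to 2392 at -22 hours, with no overlap. Of 8 genes of sinusoidal endothelium 2 were lower and 0 higher at 6 hours, STAB1 (stabilin-1, a scavenger receptor) with -1.48 (SE 0.20) and CLEC4G (a lectin of sinusoids) with -1.23 (SE 0.18), and 5 were lower and 1 higher at 9 hours (28.4% and 36.6% of all genes). Their summed level of 2780 to 3433 at 6 hours overlapped that of 2969 to 6474 at -22 hours. VWF, a defining gene of large-vessel endothelium, and CD34 stayed near the lower end at both hours. The part of endothelial cell number in the PECAM1 values was not tested. Biopsies mix cells, so the cells in which ICAM1, VCAM1 and SELP rose cannot be told from these values.

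**Figure D3:**
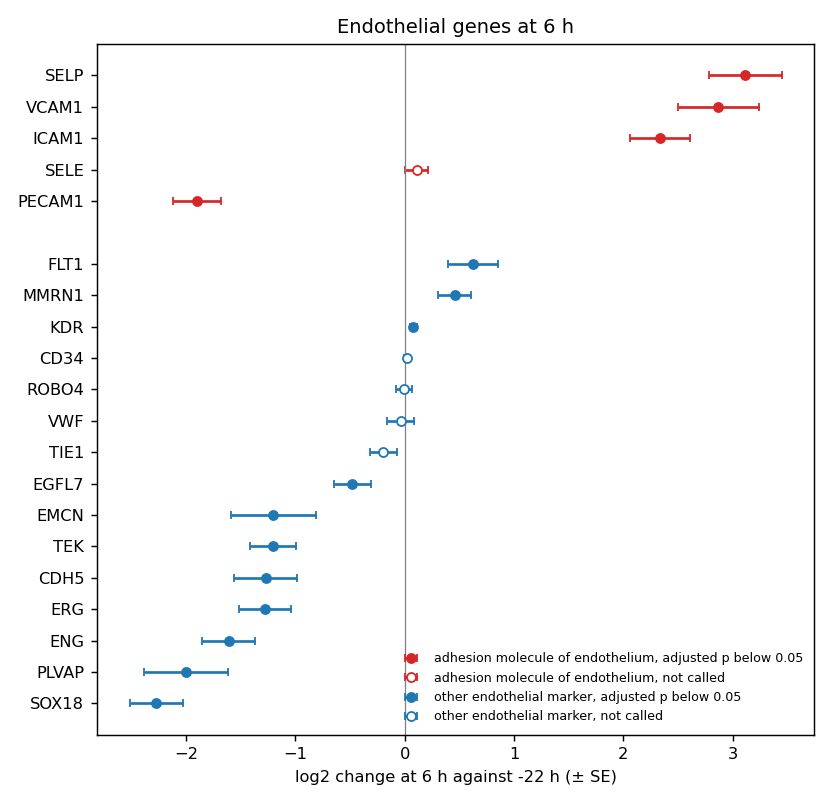
Log2 change at 6 hours against -22 hours (horizontal axis, points, with SE bars; n = 4 and 8 arrays) of the 5 endothelial adhesion molecules among the members (red, top) and of 15 other endothelial genes (blue), filled where the adjusted p was below 0.05. SELP, VCAM1 and ICAM1 lie above 2, while PECAM1 lies at -1.90 among 8 falling endothelial genes that reach down to SOX18 at -2.27. The biopsies mix cells, so the cells behind these changes are not resolved.

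Other junction and transmigration genes were counted as a group. Of 18 measured, 8 were lower and 1 higher at 6 hours (29.3% and 26% of all genes), and 10 were lower and 3 higher at 9 hours (28.4% and 36.6% of all genes at 9 hours), with a median log2 change at 9 hours of -0.56 against 0.04 over all genes. CLDN5, the claudin of endothelial tight junctions, fell by 4.17 (SE 0.32) at 6 hours to 2.80, near the lower end, so the size is a lower bound. CD99, through which leukocytes pass the junction after PECAM1, changed by -2.56 (SE 0.16) at 9 hours, THY1 by -1.64 and JAM3 by -0.93. CD58, the ligand of CD2, went the other way with 1.91 at 12 hours.

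A further list held 19 regulators and receptors of endothelial activation. At 3 hours 10 of the 19 were higher and the other 9 not called, where 4.47% of all genes were higher and 2.57% lower, with a median change of 0.65 over the list and -0.02 over all genes. FOS rose by 5.69, NFKBIA, the inhibitor that NF-kappaB itself induces, by 4.22 (SE 0.29), NFKB2 by 3.05 (SE 0.42) and JUN by 3.02. ICAM1, VCAM1, SELP and CD44 were called higher at this hour too. At 48 hours 5 of the 19 were lower and the other 14 not called (16.2% of all genes were lower and 15.0% higher), with ERG, a factor of resting endothelium, at -0.95 and ETS1 at -0.81. KLF4, PROCR (the endothelial protein C receptor) and THBD (thrombomodulin) rose by 4.24 at 6 hours, 3.07 at 12 hours and 2.07 at 12 hours.

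ITGB2 encodes the beta 2 chain that leukocyte integrins share, the partner that binds ICAM1. None of its 5 changes was called. At 6 hours its probe set (Bt.4615.1.S1_at) read 6.96, 7.51, 7.40 and 7.42 in cows 1, 3, 7 and 8, against a lowest of 7.15, a median of 8.14 and a highest of 8.50 at -22 hours. The change of -0.70 (SE 0.31) was lower in 4 of 4 cows and just missed the threshold (adjusted p = 0.0604). It shrank to -0.40 with the cow as a block, again without a call, and the median change within the 4 cows was -0.39. Without cow 5 it passed, at -0.66 (adjusted p = 0.0393). The other changes ranged between -0.44 at 48 hours and -0.17 at 9 hours, and that at 48 hours was called with the cow as a block (adjusted p = 0.0318).

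At 9 hours the ITGB2 values were 6.90, 7.73 and 9.42 (lowest, median, highest), and the highest, cow 5, stood well above the next cow, at 8.00. That biopsy also carried more of other leukocyte RNA. The summed linear level of 11 general leukocyte markers was 8578 in cow 5 and 2299 to 3811 in the other 7 cows at 9 hours, and that of 13 neutrophil markers 33550 against 5658 to 13969. Of the members, CD44 was also highest in this array, at 9.31 against 8.12 to 8.64 in the others. The part of blood or leukocyte content in these values was not tested.

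**Figure D4:**
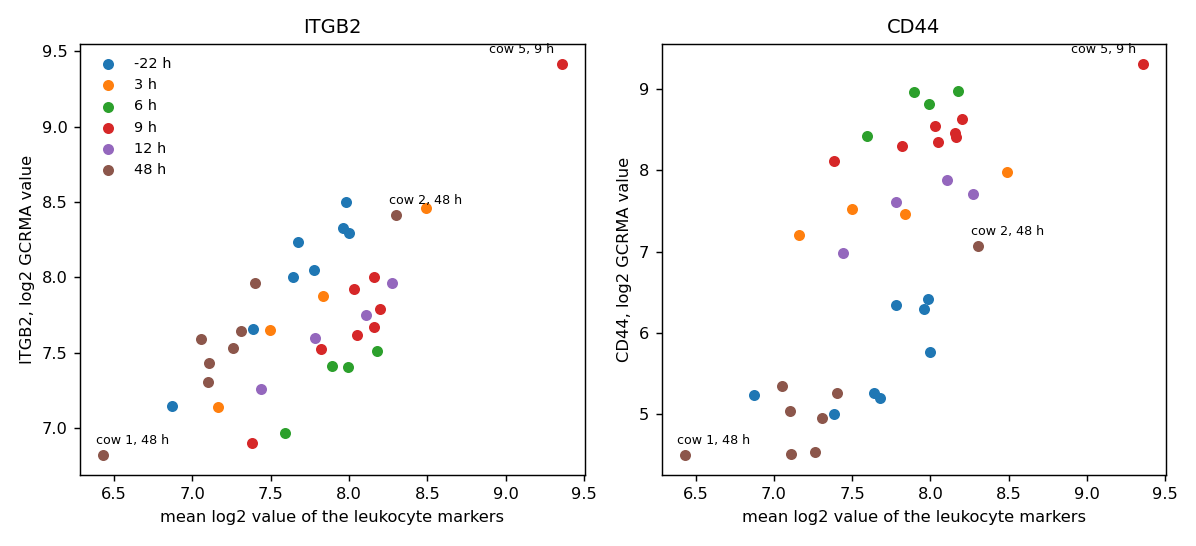
Log2 value of ITGB2 (left) and CD44 (right) in each of the 36 arrays against the mean log2 value of 11 general leukocyte markers in the same array, coloured by hour. Cow 5 at 9 hours lies at the upper right for ITGB2. The 6 hour arrays (4 cows) have marker levels of 7.59 to 8.18, within or just above the 6.87 to 8.00 of all 8 cows at -22 hours. Their median ITGB2 value is 7.41, against 8.14 for all 8 cows at -22 hours. Within each of the 4 cows the marker level is higher at 6 hours than at -22 hours. The median ITGB2 change within the 4 cows is -0.39, and the ITGB2 change at 6 hours was not called. CD44 at 3 to 12 hours lies above all -22 hour arrays.

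ITGAM encodes the alpha M chain that pairs with ITGB2 to form Mac-1 on neutrophils and macrophages. Its 2 probe sets (Bt.27978.1.S1_at and Bt.27978.1.A1_at) lay between 2.35 and 2.86 in all arrays, at percentiles 26.3 and 26.1 of all probe sets. The calls at 9 hours (0.15, SE 0.04, adjusted p = 0.00214, first probe set) and at 48 hours (0.05, SE 0.02, adjusted p = 0.0367, second) are small shifts near the lower end, each made by 1 of the 2 probe sets, and that at 48 hours was lost without cow 1, 2, 3 or 4 (adjusted p = 0.191, 0.0858, 0.0864 and 0.0888). Values this low cannot tell whether the transcript is absent or the probes are poor. ICAM3 encodes a ligand of the beta 2 integrins on resting leukocytes, and no change of it was called. Its probe set (Bt.4293.1.S1_at) ranged over 6.15, 7.12 and 7.75 (lowest, median, highest) at -22 hours, and its largest change was 0.54 (SE 0.34, adjusted p = 0.457) at 3 hours, where cow 3 stood at 8.89 and cow 1 at 6.71.

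Among 17 further integrin genes 8 were higher and 3 lower at 9 hours, where 36.6% of all genes were higher and 28.4% lower. ITGAV, the alpha chain of vitronectin receptors, was called higher at every hour, with 1.87 (SE 0.19) at 9 hours, and ITGA2, a collagen receptor chain, rose by 2.82 (SE 0.38) at 6 hours. ITGB3 and ITGAE were lower at 9 hours, ITGB3 with -0.78 and ITGAE with -0.64. ITGAL, the other main partner of ITGB2, changed by 0.32 (SE 0.27) at 9 hours and was not called at any hour. ITGA4, the partner chain that binds VCAM1, was near the lower end (2.46 at 9 hours and 2.25 at -22 hours). Of 20 genes that activate or anchor integrins, 10 were higher and 1 lower at 9 hours (36.6% and 28.4% of all genes), among them LYN, a kinase downstream of integrins, at 1.36 (SE 0.11) and FERMT3, the kindlin of blood cells, at 0.86 (SE 0.22).

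CD44, the receptor of hyaluronan and osteopontin, is carried by leukocytes and by other liver cells, and it rose about as far as SELP. Its probe set (Bt.5494.1.S1_at) read 8.43, 8.97, 8.81 and 8.96 in cows 1, 3, 7 and 8 at 6 hours, against a lowest of 5.01, a median of 5.51 and a highest of 6.42 at -22 hours. The gap between the groups was about 2 log2 units, and the change of 3.10 (SE 0.33) is an 8.59-fold rise (adjusted p = 2.62e-09). At 9 hours the values were 8.12, 8.43 and 9.31 (lowest, median, highest), a change of 2.82 (SE 0.27, higher in 8 of 8 cows), not distinguishable from 6 hours (adjusted p = 0.790).

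The change of CD44 was 1.85 (SE 0.33, adjusted p = 0.000294) at 3 hours and 1.86 (SE 0.33, adjusted p = 2.18e-05) at 12 hours, so both sides of its peak stood at about the same height. Its level at 48 hours differed from that at 12 hours by -2.40 (SE 0.33). At 48 hours 7 cows had values between 4.50 and 5.35, and cow 2 stood apart at 7.07. The mean change of -0.54 (SE 0.27) was not called (adjusted p = 0.120), and without cow 2 it was -0.73 and called (adjusted p = 0.0216). In cow 2 at 48 hours the general leukocyte markers summed to 4601, against 1619 to 2921 in the other 7 cows. ITGB2 was also highest there, at 8.42, and so were ICAM1 (8.14), ICAM3 (7.42), SELP (7.27) and ADGRE5 (8.41). VCAM1 and PECAM1 were not highest in that array.

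ADGRE5 (CD97), an adhesion G protein-coupled receptor of leukocytes whose ligand is CD55, was first called higher at 9 hours. At 12 hours its probe set (Bt.11088.1.S1_a_at) had values of 10.99, 10.66, 10.25 and 9.61 in cows 1, 3, 7 and 8, against a lowest of 7.45, a median of 8.03 and a highest of 8.64 at -22 hours. At 9 hours the values were 8.94, 9.59 and 10.05 (lowest, median, highest), also without overlap. The log2 change was 1.50 (SE 0.19, adjusted p = 2.99e-08) at 9 hours and 2.35 (SE 0.23), a 5.08-fold rise (adjusted p = 3.44e-10), at 12 hours, and the 2 hours differed (adjusted p = 0.00728). At 3 and 6 hours, when ICAM1, VCAM1, SELP and CD44 had risen in every cow, ADGRE5 changed by -0.24 (SE 0.23) and 0.33 (SE 0.23) without a call. In cow 1, whose ICAM1 and SELP were within or below the baseline range at 12 hours, ADGRE5 was at its highest of all arrays. By 48 hours it was between 7.33 and 8.41 and overlapped the baseline.

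Ligands and partners of the members were counted in a list of 25 genes, of which 9 were higher and 4 lower at 6 hours (26% and 29.3% of all genes), and 10 higher and 5 lower at 9 hours (36.6% and 28.4%), counts near those shares. CD55, which ADGRE5 binds, rose by 3.47 (SE 0.32) at 9 hours and 3.38 (SE 0.39) at 12 hours. SPP1 (osteopontin, a ligand of CD44) rose by 6.18 (SE 0.51) at 12 hours and was still up by 2.46 (SE 0.42) at 48 hours. VCAN (versican, which binds hyaluronan and CD44) rose by 2.84 (SE 0.30) at 9 hours, and TNFAIP6, which modifies hyaluronan, by 2.40 (SE 0.37) at 6 hours. These 4 started between 2.51 and 2.82, near the lower end, so their rises are lower bounds. HAS2, a hyaluronan synthase, was not called at any hour. Of the linkers between CD44 and the cytoskeleton, MSN (moesin) rose by 0.88 (SE 0.16) at 9 hours, RDX (radixin) changed by -0.70 and ANK3 (ankyrin G) by -4.30 (SE 0.29) at 12 hours.

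For rolling, 8 ligands and glycosylation enzymes of selectins were measured, and 1 was higher and 1 lower at 6 hours (26% and 29.3% of all genes). SELPLG (PSGL-1), the leukocyte ligand of P-selectin, changed by 0.01 (SE 0.11) at 6 hours, the hour at which SELP was highest, and was called at 48 hours alone (0.25, SE 0.09). CHST2, a sulfotransferase of selectin ligands, rose by 1.52 (SE 0.28) at 6 hours.

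Markers of the cells that could carry the leukocyte members were measured alongside. Hepatocyte genes lay at the top of the scale, such as ALB at 16.14 at -22 hours. Of 15 hepatocyte markers 10 were lower and 1 higher at 6 hours (29.3% and 26% of all genes). At 9 hours 12 were lower and 1 higher (28.4% and 36.6%). Of 11 general leukocyte markers 3 were higher and 1 lower at 6 hours (26% and 29.3% of all genes) and 6 higher and 2 lower at 9 hours (36.6% and 28.4%), and PTPRC (CD45) was not called at any hour. Of 13 neutrophil markers 6 were higher and the other 7 not called at 9 hours, and their summed level ranged over 5658 to 33550 at 9 hours, against 291 to 512 at -22 hours. S100A8 rose by 6.19, S100A9 by 6.43 and S100A12 by 5.88 at 9 hours. The granule genes MPO, ELANE and MMP9 stayed between 2.10 and 2.54 on average at these hours. Of 11 Kupffer cell and macrophage markers 7 were lower and the other 4 not called at 9 hours. The platelet list had 2 of 10 genes on the array, and PF4 was not called. The part of these cells in the CD44 and ADGRE5 values was not tested.

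The calls between successive hours used the study's stricter threshold (Bonferroni below 0.01), applied here within each comparison. With it 22.2% of all probe sets were differentially expressed (DE) in at least 1 of 5 comparisons. That share was found here, and the paper's own count of DE transcripts is smaller. Of the 12 member probe sets 3 were DE: ICAM1 from -22 to 3 hours (1.09% of all probe sets were DE then), and ADGRE5 and CD44 from 12 to 48 hours (16.1%). For ADGRE5 the log2 difference of 48 hours from 12 hours was -2.47 (SE 0.23). With Benjamini-Hochberg below 0.01, a looser threshold, the count was 7. The 22.2% does not belong to that threshold, and without its own share the 7 cannot be read as an excess.

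The genes whose pattern over the 36 arrays was most like that of a member differed from member to member. For ICAM1 these were NFKBIA (Pearson correlation 0.95), CCL4 (0.93), a chemokine, and NFIL3 (0.93). For VCAM1 they were EZH2 (0.94), MARCKSL1 (0.93) and SERPINB8 (0.92), for SELP TIPARP (0.94), SAV1 (0.94) and STRN3 (0.94), for CD44 BAZ1A (0.95), TOP1 (0.94) and TRIB1 (0.94), and for ADGRE5 PPP4C (0.91), SUPT4H1 (0.91) and COMMD8 (0.91). Nearest to PECAM1 were CAVIN2 (0.89), a caveolar protein, SMC3 (0.87) and ZBTB4 (0.87), all of which had their largest change at 6 hours, downward. Nearest to ITGB2 were LAPTM5 (0.93), one of the 11 general leukocyte markers, MPEG1 (0.84) and WIPF1 (0.84), and nearest to ICAM3 PTGER4 (0.71), WDFY4 (0.71) and TYROBP (0.68). Among the members themselves SELP and CD44 (0.87) and VCAM1 and CD44 (0.87) were most alike, and SELP and PECAM1 (-0.73) most opposed. The arrays share cows and hours, so these correlations describe the time course and carry no test. For SELE and ITGAM the nearest genes share flat values, and for SELE also the single high array, and they are not listed.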

How the data were processed

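The deposited log2 values were made by the authors with GCRMA in R (background correction, quantile normalization, 1 value per probe set), and were used as deposited for all 36 arrays. The annotation table names 1 gene for 13318 of the 24128 probe sets, several for 86 and none for 10724. A gene was read through its brightest probe set by mean over all arrays. Limma 3.58.1 in R 4.3.3 fitted 1 mean per hour without the cow, two-sided. Lists were matched by current or annotated symbol (208 of 278 entries), and list genes were named by rule: up to 4 with the largest called change, and known ligands or partners of members. CDH5, FLT1, MMRN1, KDR, VWF, CD34, THY1, JAM3, JUN, PROCR, THBD, ERG, ETS1, ITGB3, FERMT3, HAS2, PTPRC, MPO, ELANE, MMP9, PF4 and ALB were named after their values were seen. Members and lists were chosen with earlier results of these data known. Arrays of a cow are linked by the cow number in the labels; deviations at -22 and 48 hours had a mean correlation of 0.32 for the same cow (range 0.12 to 0.50), against -0.04 for different cows. Summed levels add 2 to the power of the log2 values. The scripts were tested on simulated data. Figures were drawn with matplotlib 3.10.9. The number of cows limits the precision. Sequences were not used here.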

Additional observations from a re-analysis of the deposited data

Results flagged for a closer look

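In 72 groups of 4 or 8 arrays (12 probe sets at 6 hours), 9 had a highest or lowest cow far from the others by Dixon's criterion, which chance meets in about 1 in 20 groups. ICAM1 at 3 hours was lowest in cow 1, at 10.86, with the other 3 cows between 11.19 and 11.22. SELP at 3 hours was highest in that cow, at 10.01, against 9.31 to 9.40. SELP at 9 hours was lowest in cow 2, at 8.80, against 9.60 to 10.05. ICAM3 at 6 hours was highest in cow 3, at 7.72, against 7.16 to 7.20. SELE was highest in cow 8 at 9 hours, at 3.22 against 2.95 to 3.04, and in cow 7 at 12 hours, at 3.93 against 2.90 to 2.99.

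ITGB2 and CD44 at 9 hours were highest in cow 5, at 9.42 (the others 6.90 to 8.00) and 9.31 (8.12 to 8.64). CD44 at 48 hours was highest in cow 2, at 7.07 against 4.50 to 5.35. The leukocyte markers were highest in these arrays too, and their part in the values was not tested.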

How the results depend on the processing

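The number of cows limits every change, most of all at 3, 6 and 12 hours with 4 cows, and values near the lower end (SELE, ITGAM) carry little signal. Of 1279 values recomputed for single probe sets, 1197 kept direction and side of the threshold. Another 36 lost their call, 32 gained one and 14 changed sign with no call in either setting. The settings numbered 25, among them some that applied only to the count between successive hours. Each cow was left out in turn, and so were a few single arrays (cow 1 at -22 hours, cow 2 at 48, cow 5 at 9 and cow 7 at 12 hours). The member probe sets called then numbered 4 to 5 for 3 hours, 6 to 7 for 6 hours and 8 to 10 for 9 hours. For 12 hours they numbered 3 to 6 (3 without cow 7), and for 48 hours 1 to 4 (1 without cow 3 and 1 without cow 4). Leaving out the 9 hour array of cow 5 or the 12 hour array of cow 7 was chosen after seeing the data.

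With Bonferroni below 0.05 the counts were 2 for 3 hours, 5 for 9 hours, 1 for 12 hours and 0 for 48 hours. With the 4 fully sampled cows alone they were 3 at 12 hours and 0 at 48 hours, and exact sign flips of within-cow changes gave 1 at 48 hours. With the cow as a fixed replicate block (the pairing by cow) the counts were 4, 6, 8, 4 and 5 in order of the hours, where ITGB2 and PECAM1 gained a call at 48 hours and SELE lost one at 12 hours, and as a random block 4, 6, 9, 5 and 3. Array weights gave 5 at 48 hours. Successive hours at Benjamini-Hochberg below 0.01 gave 7, with no share of all probe sets to set beside it.

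The values after a sign change were all small, and the cause was not tested. The main value was not small in each case, with 0.56 for SELP at 12 hours. ICAM3 at 9 hours was 0.023 with the 4 cows, 0.033 with array weights and between -0.24 and 0.063 with a cow or array left out, and at 12 hours between -0.061 (without the array of cow 7) and 0.25. VCAM1 at 48 hours was -0.021 with array weights, and SELP at 12 hours lay between -0.025 (without cow 7) and 1.14 (without cow 1). ITGB2 at 3 hours was 0.052 with the cow as a block and 0.0084 with the 4 cows. ITGAM at 3 hours was 0.012 with array weights and between -0.052 and 0.019 with a cow or array left out. ADGRE5 at 48 hours was 0.0098 after median centring, which moved the median of all probe sets by 0.13 at that hour.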
